A study of Mus musculus with 3 samples.

Results

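Genes of the apoptotic machinery were read in hippocampal CA1 tissue of mice after contextual fear conditioning, a task that pairs a place with a foot shock. They comprised every gene with a probe set assigned to it alone by the platform annotation and a mouse symbol of the caspase, Bcl2, Birc, Pdcd, Traf, Ripk or Cide series, or among the named regulators Bak1, Bad, Bid, Bik, Bok, Bnip2, Bnip3, Mcl1, Apaf1, Fadd, Cflar, Tradd, Mdm2, Fas, Fasl, Aifm1, Xiap, Diablo, Tnfaip3 and Bcl3. This gave 55 genes with 77 probe sets, out of 8251 named genes. The names Bax, Bnip3l and Trp53 and the Ripk series had no single-gene probe set here, and 5 probe sets that the annotation assigns to several genes, with a fitting name among them, were not used.

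All samples belonged to 1 group. Young males of C57BL/6J, an inbred strain, spent 2 min in an unfamiliar chamber before a floor-grid shock of 1 s at 0.5 mA, received 3 such cycles, went back to the home cage 1 min later, and gave RNA 6 h after the final shock. The group was measured on 3 arrays. Nothing in the labels states how many animals went into each, so differences between arrays may be in part technical. No unconditioned animals are part of these samples, so nothing below is an effect of training.

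Apoptosis is the orderly dismantling of a cell by caspases, proteases made as inactive precursors. In the mitochondrial route, proteins of the Bcl2 family either hold the outer membrane intact or open it, and released factors activate caspase-9 on a scaffold. In the extrinsic route, receptors of the tumour necrosis factor family activate caspase-8, and inhibitor of apoptosis proteins hold the resulting proteases in check. Mature neurons restrict this pathway, and several of its members also have duties outside cell death, in synaptic plasticity, inflammation and lipid storage.

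Signals are deposited intensities in arbitrary units, and values written in a row are those of arrays 1, 2 and 3. The threshold used below is 174.8, the median of every deposited value, and a gene is called measured when its mean exceeds it. Probe sets differ in how well they bind, so a gene under the threshold may still be transcribed, and signals of different genes were not compared. A gene is given by its brightest probe set unless stated. The signals come from whole tissue, in which fewer cells of a type and less RNA per cell cannot be told apart. The array medians were 176, 177 and 171. The ratio of 3' to 5' signal, a sign of RNA integrity and labelling, was 3.99, 1.21 and 3.94 for Gapdh and 2.57, 1.86 and 3.50 for Actb. All 4 CA1 pyramidal markers (Wfs1, Pou3f1, Dcn and Neurod2) were above threshold on every array, and so were the 4 astrocyte and 4 oligodendrocyte markers with a probe set.

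Of the 55 genes 29 were above threshold on all 3 arrays, against 52.9% of all named genes, 24 were above it on none, against 34.7%, and 2 lay on both sides of it. The share above threshold was thus that of genes in general. The counts by family below rest on few genes, and none was tested against that share. Both functional lists were divided: 11 of 20 pro-apoptotic and 7 of 13 anti-apoptotic genes were above threshold on all arrays. Of 25 listed pro-apoptotic genes 20 had a probe set, and of 17 anti-apoptotic genes 13. Just above the threshold on average were Cflar at 176 ± 24.1 (SD, n = 3), Fadd at 179 ± 47.2 and Apaf1 at 189.6 ± 7.08. Just below it were Bid at 143 ± 20.1 and Bcl2l10 at 133.5 ± 30.7.

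**Figure D1:**
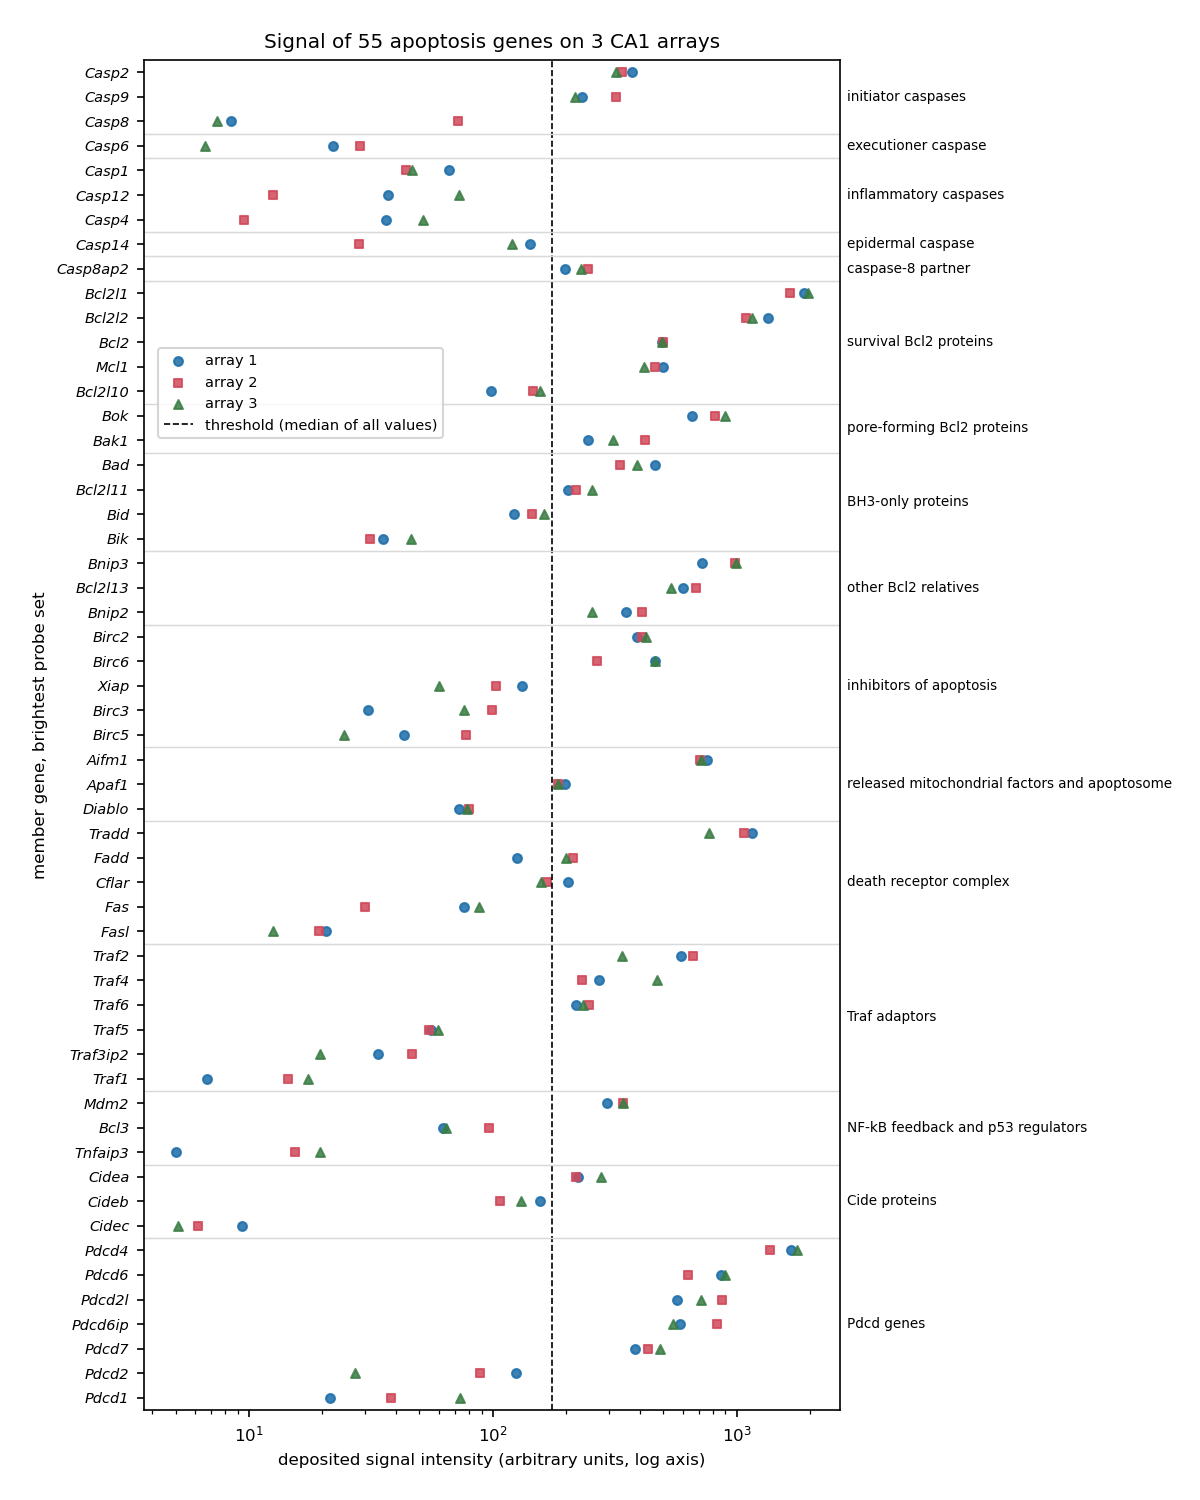
Deposited signal of each of 55 genes on each of the 3 arrays, on a log axis, with genes grouped by family at the right and the threshold of 174.8 as a dashed line. The other Bcl2 relatives and both pore-forming genes lie right of the line on every array, and the inflammatory caspases lie left of it.

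Among 8 caspases with a probe set, 2 of the 3 initiators were above threshold on all arrays, against 52.9% of named genes. No other caspase was above it on any array, as for 34.7% of named genes. Casp2, an initiator caspase, gave 374, 339 and 320.3. Casp9, the initiator that the apoptosome activates, gave 233, 319 and 216.5. On these brightest probe sets both were above threshold on every array, and for both the highest array exceeded the lowest by less than 2-fold. The other probe set of Casp2 gave 165.4, 161.8 and 137.8, under threshold on each array. The third initiator, Casp8, which the death receptors activate, gave 8.4, 72.1 and 7.4, and Casp6, an executioner, gave 22.0, 28.5 and 6.6. Neither came near the threshold on any array.

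The 3 inflammatory caspases were under threshold on all arrays, as were 34.7% of named genes. Casp1, which matures interleukin-1 beta, gave 66, 44 and 46.5. Casp4, the sensor of intracellular lipopolysaccharide, gave 36.5, 9.5 and 51.5, and Casp12 gave 37.3, 12.6 and 72.5. None of the 3 exceeded 72.5 on any array. Microglia, the cells in brain best known for this pathway, were represented by 5 of 6 markers above threshold on every array. Casp14, a caspase of the cornifying epidermis, gave 142, 28.2 and 119. Casp8ap2, a large nuclear protein that binds the caspase-8 death effector domain and takes part in histone mRNA processing, was above threshold at 197, 246 and 231.

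The promoters of these caspases differ in the number of CG dinucleotides, a feature that the rule for the 55 genes did not use. The 4 promoters printed below were, however, picked after the signals were seen. CG-rich promoters are typical of genes read in most cells, and CG-poor ones of genes restricted to few cell types. The 250 bases before the start of transcription, from RefSeq on GRCm38.p6, are shown 5' to 3' on the gene's strand, with CG in capitals, for the initiators above threshold (Casp9 at chr4:141793362-141793611 and Casp2 at chr6:42264735-42264984) and for 2 inflammatory caspases under it (Casp1 at chr9:5298267-5298516 and Casp12 at chr9:5345226-5345475). All 4 lie on the plus strand.
Casp9: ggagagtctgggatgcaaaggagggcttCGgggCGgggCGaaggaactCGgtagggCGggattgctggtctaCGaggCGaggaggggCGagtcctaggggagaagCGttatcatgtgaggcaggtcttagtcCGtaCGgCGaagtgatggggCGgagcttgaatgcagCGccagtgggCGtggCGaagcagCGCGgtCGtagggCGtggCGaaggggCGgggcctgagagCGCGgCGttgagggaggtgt
Casp2: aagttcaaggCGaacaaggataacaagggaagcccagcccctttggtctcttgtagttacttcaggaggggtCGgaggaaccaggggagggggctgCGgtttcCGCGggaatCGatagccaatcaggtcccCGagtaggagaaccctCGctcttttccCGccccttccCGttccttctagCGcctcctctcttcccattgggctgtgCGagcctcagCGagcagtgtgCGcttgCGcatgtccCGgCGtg
Casp1: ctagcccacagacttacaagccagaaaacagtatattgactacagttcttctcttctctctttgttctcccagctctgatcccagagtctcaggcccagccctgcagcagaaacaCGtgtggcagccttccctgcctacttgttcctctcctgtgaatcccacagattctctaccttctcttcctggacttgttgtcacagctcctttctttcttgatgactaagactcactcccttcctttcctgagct
Casp12: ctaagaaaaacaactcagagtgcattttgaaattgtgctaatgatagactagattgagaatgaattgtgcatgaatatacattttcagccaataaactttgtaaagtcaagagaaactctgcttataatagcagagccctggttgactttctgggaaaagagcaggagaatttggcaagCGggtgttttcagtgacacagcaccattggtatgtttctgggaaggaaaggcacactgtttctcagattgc
The Casp9 window holds 25 CG and the Casp2 window 17, numbers reached by 10.7% and 23.5% of all 32851 windows in the table. The Casp1 and Casp12 windows hold 1 CG each, a number that 92.1% of windows reach. The other caspases under threshold lay between, with 3 in Casp4, 5 in Casp8, 8 in Casp14 and 11 in Casp6.

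Across the apoptosis genes as a whole, measured genes also had more CG. A window was found for 49 of the 55, with the mean taken where a gene had several. The 29 measured genes had a median of 19 CG (quartiles 15 and 25), and the 20 genes not measured had 6.5 (quartiles 4.75 and 12.5). Over all 6576 named genes with a window the medians were 16.8 and 9, so the direction is that of genes in general, and it is given as a description without a test. At the low end lay Casp1, Casp12, Casp4, Pdcd1 and Traf1, with 1, 1, 3, 3 and 4 CG, all under threshold. At the high end lay Apaf1 with 42, Bcl2 with 36 and Mdm2 with 29, all measured, and Diablo with 30, which was not. Bcl3 and Birc5 with 19 each and Bid with 18 were also not measured, though close to the median of the measured genes. Cflar with 7, Bcl2l1 with a mean of 7.67 over its 3 windows, Bak1 with 8 and Bcl2l2 with 9 were measured with few CG. Tradd, Pdcd2, Bik, Bcl2l10, Traf3ip2 and Cidea had no window.

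**Figure D2:**
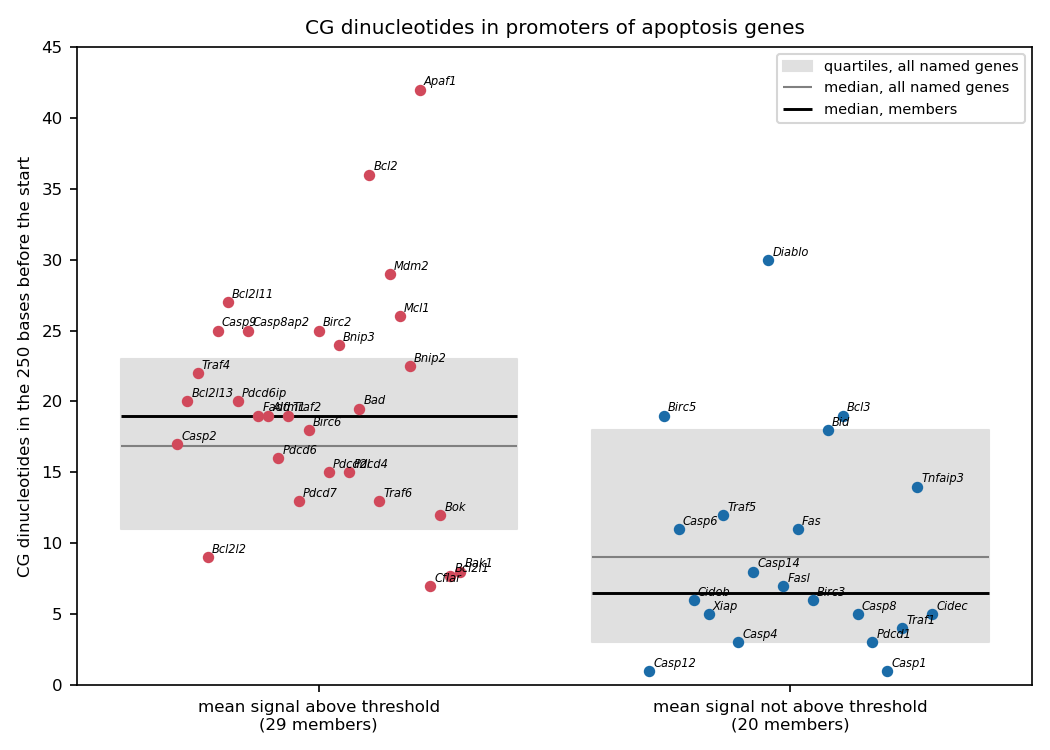
Number of CG dinucleotides in the 250 bases before the start for 49 genes, split by whether the mean signal was above threshold. Black lines are the medians of these genes, 19 and 6.5, and grey lines and bands are the medians and quartiles of all named genes.

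Of 5 survival genes of the Bcl2 family, whose proteins hold the mitochondrial membrane intact, 4 were above threshold on all arrays, against 52.9% of named genes. Bcl2l1, which encodes Bcl-xL and, by splicing, the shorter Bcl-xS, gave 1895, 1649 and 1969. Bcl2l2, which encodes Bcl-w, gave 1342, 1088 and 1151. Mcl1, a short-lived survival protein, gave 500.5, 462 and 418. Among these 3 the ratio of the highest to the lowest array was at most 1.23, in Bcl2l2. Bcl2 itself, the founding member, gave 496, 498 and 492, the smallest log2 SD of the 31 measured genes, at 0.019. The fifth, Bcl2l10, an oocyte-enriched relative, gave 98.5, 146 and 156.

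The 2 genes here for pore-forming proteins exceeded the threshold on each array, as did 52.9% of named genes. Bok, an effector that neurons express, gave 657, 812 and 896, lowest on array 1. Bak1, which assembles into pores of the outer membrane, gave 245, 419.8 and 312, also lowest on array 1 and highest on array 2. For Bak1 the highest array exceeded the lowest by 0.77 on the log2 scale after scaling, and for Bok by 0.49. Neither range passed the variance test described below.

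Of the BH3-only genes, whose proteins trigger the pore formers, 2 of 4 were above threshold on all arrays, against 52.9% of named genes. Bad, which is held inactive by phosphorylation when growth factors are present, gave 465, 334 and 391.5. Bcl2l11, which encodes Bim, a transcriptionally controlled trigger of neuronal death, gave 203.5, 219 and 255. Bid, the link from caspase-8 to the mitochondria, gave 122, 145 and 162, below threshold on each array. Bik, at 35.6, 31.4 and 46.3, was also below it on each array.

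The 3 related genes were above threshold on all arrays, as were 52.9% of named genes. Bnip3, a hypoxia-responsive receptor for mitochondrial removal, gave 724, 986 and 998. Bcl2l13, another mitochondrial receptor of this kind, gave 604, 683 and 537. Bnip2, a scaffold that binds Bcl2 and Cdc42, gave 352.5, 410.5 and 256. Array 1 was lowest for Bnip3 and array 3 for the other two.

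Downstream of the membrane, Apaf1, the scaffold of the apoptosome, gave 198, 186 and 185, close above the threshold and with a log2 SD of 0.048. Aifm1, a flavoprotein of the inner membrane that supports respiration and moves to the nucleus in some forms of death, gave 759, 706 and 717. The arrays lay within 0.11 of each other on the log2 scale. Diablo, which frees caspases from their inhibitors, gave 72.8, 79.6 and 78.5, under threshold with little spread.

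Of 5 inhibitor of apoptosis genes 2 were above threshold on all arrays, against 52.9% of named genes. Birc2, which encodes the ubiquitin ligase cIAP1, gave 391, 409 and 427. Birc6, a giant ubiquitin-conjugating inhibitor, gave 461.5, 267 and 465, with array 2 lower than both others, which were nearly equal. Birc3, which encodes cIAP2, gave 30.8, 98.9 and 75.9. Birc5, the mitotic protein survivin, gave 43.2, 77.7 and 24.6, and Xiap, the direct caspase inhibitor, gave 132, 103 and 60.2. All 3 stayed under threshold on each array.

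Of 5 genes of the death receptor complex 1 was above threshold on all arrays, against 52.9% of named genes. It was Tradd, the adaptor of tumour necrosis factor receptor 1, at 1156, 1069.9 and 769.7. Its only probe set carries a suffix, r, that marks probes chosen under relaxed rules. Fadd, the adaptor that recruits caspase-8, gave 125, 213 and 199, above threshold on 2 arrays. Cflar, which encodes the caspase-8 inhibitor FLIP, gave 203, 166 and 158, above it on 1. The receptor gene Fas gave 76.3, 29.8 and 88.1 on a probe set that carries the prefix of array controls, and its other probe set did not exceed 9.5. Its ligand Fasl, a product of cytotoxic lymphocytes, gave 20.6, 19.3 and 12.6. T cell markers were under threshold for 4 of 5 genes, with Cd3e at 26.2, 34.8 and 39.1, while Cd4 was above it on all arrays.

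Of 6 Traf genes, adaptors that carry receptor signals to NF-kB and kinases, 3 were above threshold on all arrays, against 52.9% of named genes. Traf2, a partner of Tradd and of the cIAPs, gave 591, 660.5 and 338. Traf6, the adaptor of Toll-like and interleukin-1 receptors, gave 219, 247 and 235. Traf4, which has roles in epithelial and neural development, gave 274, 232 and 471. Array 3 was thus lowest for Traf2 and highest for Traf4. Traf5, at 55.9, 54.5 and 59.7, Traf3ip2, the adaptor Act1 of interleukin-17 receptors, at 33.9, 46.7 and 19.5, and Traf1, at 6.7, 14.5 and 17.4, were under threshold.

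Of the NF-kB and p53 regulators, 1 of 3 was above threshold on all arrays, against 52.9% of named genes. Tnfaip3, the A20 ubiquitin-editing enzyme, gave 5.0, 15.5 and 19.5, and Bcl3, a nuclear co-regulator, gave 62.2, 96.5 and 64.3. Both stayed under threshold on each array. Mdm2, the ubiquitin ligase that restrains p53, was above threshold at 295, 341 and 343.5.

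Of 3 Cide genes 1 was above threshold on all arrays, against 52.9% of named genes. Their proteins are named for likeness to a DNA fragmentation factor and known mainly for lipid droplets. Cidea gave 223.5, 220.0 and 277, above threshold on all arrays, whereas Cideb gave 156, 107 and 130.2 and Cidec did not exceed 9.4.

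Of 7 Pdcd genes 5 were above threshold on all arrays, against 52.9% of named genes. Their shared name reflects how they were found and not a common function. Pdcd4, a translation inhibitor, gave 1673, 1375.5 and 1770.2. Pdcd6, a calcium-binding protein, gave 860.5, 633 and 899, and Pdcd6ip, its partner Alix in membrane remodelling, gave 586, 830.4 and 548. Array 2 was lowest for Pdcd4 and Pdcd6 and highest for Pdcd6ip. Pdcd2l gave 570.3, 871 and 711, and Pdcd7, a protein of the minor spliceosome, gave 384, 432 and 486. Pdcd2 gave 125, 88.4 and 27.2. Pdcd1, the lymphocyte checkpoint receptor PD-1, gave 21.4, 38.2 and 73.0.

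The question left to these samples is how far the genes varied between replicates. Signals were scaled to a common median, floored at 47.5, the 25th percentile, and taken to log2. Of the 31 measured genes 1 differed by over 2-fold between its highest and lowest array, against 10.2% of 4876 measured genes. That gene was Traf4, with a log2 range of 1.07, followed by Traf2 at 0.92, Birc6 at 0.85, Bak1 at 0.77 and Fadd at 0.76. The median log2 SD was 0.21, against 0.25 over all measured genes. Without array 2 it was 0.17 against 0.16, so this order depends on the arrays used. By list the median log2 SD over 3 arrays was 0.25 for 12 pro-apoptotic, 0.15 for 8 anti-apoptotic and 0.29 for 11 other genes. Whether the lists differ in spread was not tested. After scaling, 8, 10 and 13 of the 31 genes were highest on arrays 1, 2 and 3, against 28.8%, 32.6% and 38.6% of all measured genes, and 12, 10 and 9 were lowest there, against 29.9%, 43.1% and 27%.

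Each probe set's variance was tested against that of others at its level with limma. In that test 0 of the 31 genes passed an adjusted p threshold of 0.05, against 0.0161% of 6218 measured probe sets. At an unadjusted p under 0.05 there were also 0, against 4.57% of measured genes. The lowest unadjusted limma p among the genes was 0.115, for Traf2, and its adjusted p was 0.971. A p that misses the threshold does not show that these genes were constant. On simulated data of 3 arrays the test found large shifts on 1 array but missed shifts of the size of the ranges above, so a count of 0 says little about them.

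**Figure D3:**
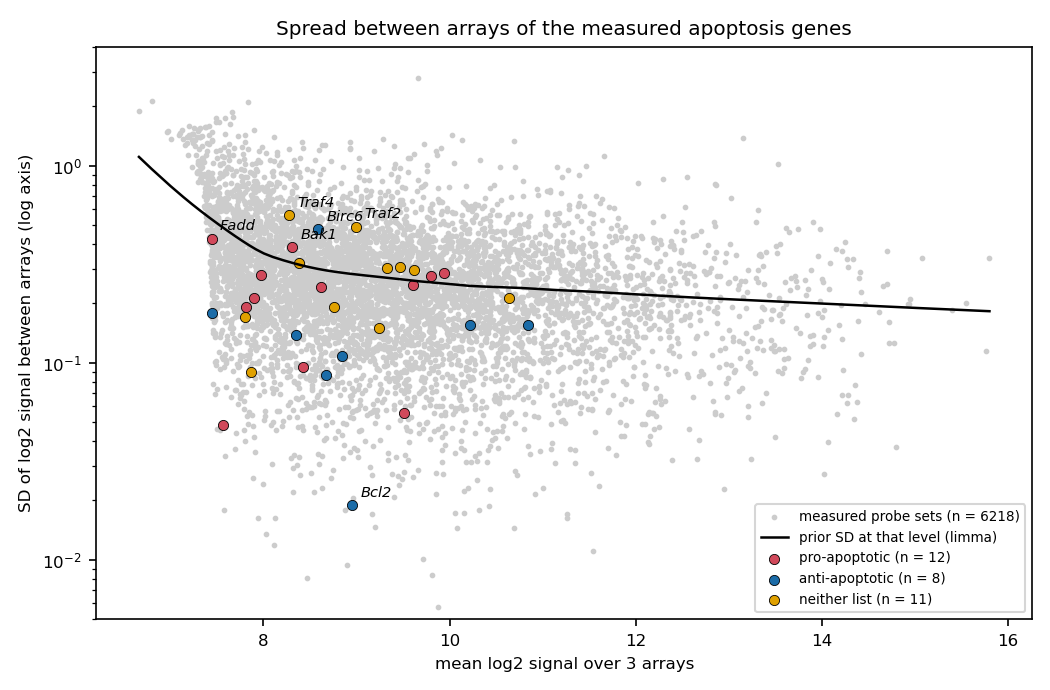
SD of log2 signal between the 3 arrays (log axis) against mean log2 signal for 6218 measured probe sets in grey and the 31 measured apoptosis genes in colour, with the prior SD that limma fitted at each level as a line. Traf4, at 0.56, is the highest of the coloured points and Bcl2, at 0.019, the lowest.

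The pro-apoptotic and anti-apoptotic genes were then followed array by array, each gene's log2 signal on 1 array set against the mean of the other 2. On array 1 the 12 pro-apoptotic genes had a median shift of -0.18, with 5 of 12 higher than the other arrays, and the 8 anti-apoptotic genes one of 0.11, with 5 of 8 higher. The median over all 4876 measured genes was 0.0039. Fadd, Bak1, Bnip3 and Bok led the pro-apoptotic list downward, at -0.74, -0.58, -0.47 and -0.40, whereas Bad and Tradd lay above the other arrays by 0.34 and 0.33. Both of these were read by probe sets whose suffix is not plain. The plain probe set of Bad was shifted by -0.91 on array 1. With plain suffixes only, 3 of 11 pro-apoptotic genes were higher there, at a median of -0.27. The pro-apoptotic value was -0.34 without array 2 and 0.025 without array 3, and the anti-apoptotic value -0.046 without array 2, so both signs depend on which arrays are compared. Cflar and Fadd were above threshold on 1 and 2 arrays and counted as measured through those arrays, which favours a high Cflar and a low Fadd on array 1. Without these, an alternative chosen after seeing the data, the medians were -0.16 with 5 of 11 higher and 0.054 with 4 of 7 higher. The median shift of 5 microglial markers on array 1 was -0.45, and whether they play a part in these values was not tested.

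On array 2, 6 of 12 pro-apoptotic genes were higher than the other arrays, and 1 of 8 anti-apoptotic genes, Mdm2. The anti-apoptotic count stayed 1 with quantile normalization. It was 4 of 8 with no scaling, and 3 of 8 with cyclic loess scaling or without array 3, so it depends on the processing. The anti-apoptotic median was -0.080 and that of all measured genes -0.065, and 2169 of the 4876 genes were higher there. On array 3 the medians were 0.028 and 0.087, against 0.060 over all genes. The pro-apoptotic value there was 0.34 without array 2 and 0.24 with plain probe-set suffixes only. Bak1 and Casp9 were highest on array 2, with shifts of 0.58 and 0.48, and Birc6 was lowest there at -0.82. On array 2 the median shifts of 4 astrocyte, 5 microglial and 4 choroid plexus or ependyma markers were 0.49, 0.48 and 0.75, and the 3' to 5' ratio of Gapdh was lowest. Single markers went the other way: Gfap, of astrocytes, gave 2049.6, 1419.9 and 2144, and Csf1r, of microglia, 1616, 1266 and 2058, both lowest on array 2. The 4 oligodendrocyte markers had a median shift of 0.29 on array 2, though Mobp (12546.5, 11531.1 and 12529.9) was lowest there. The 4 CA1 pyramidal markers had one of -0.21 on array 3, though Wfs1 (2532, 2451.6 and 2582.4) was highest there. On array 3 the astrocyte and the choroid plexus or ependyma medians were -0.43 and -0.74. In the latter list Ttr (1333.5, 4256.7 and 94.2) and Foxj1 (313.3, 507.6 and 166) were measured only through arrays 1 and 2. Its medians on arrays 2 and 3 are thus in part set by the filter. Kl, of that list, gave 251.9, 366.1 and 351.1 and was not low on array 3. The 1 measured endothelial marker, Cldn5, was shifted by 0.86 on array 3. Of those not measured, Cdh5 (16.1, 47.2 and 106.3) was also highest there, but Pecam1 (220.7, 128.3 and 142.6) on array 1. The part of these markers in the shifts of the apoptosis genes was not tested.

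**Figure D4:**
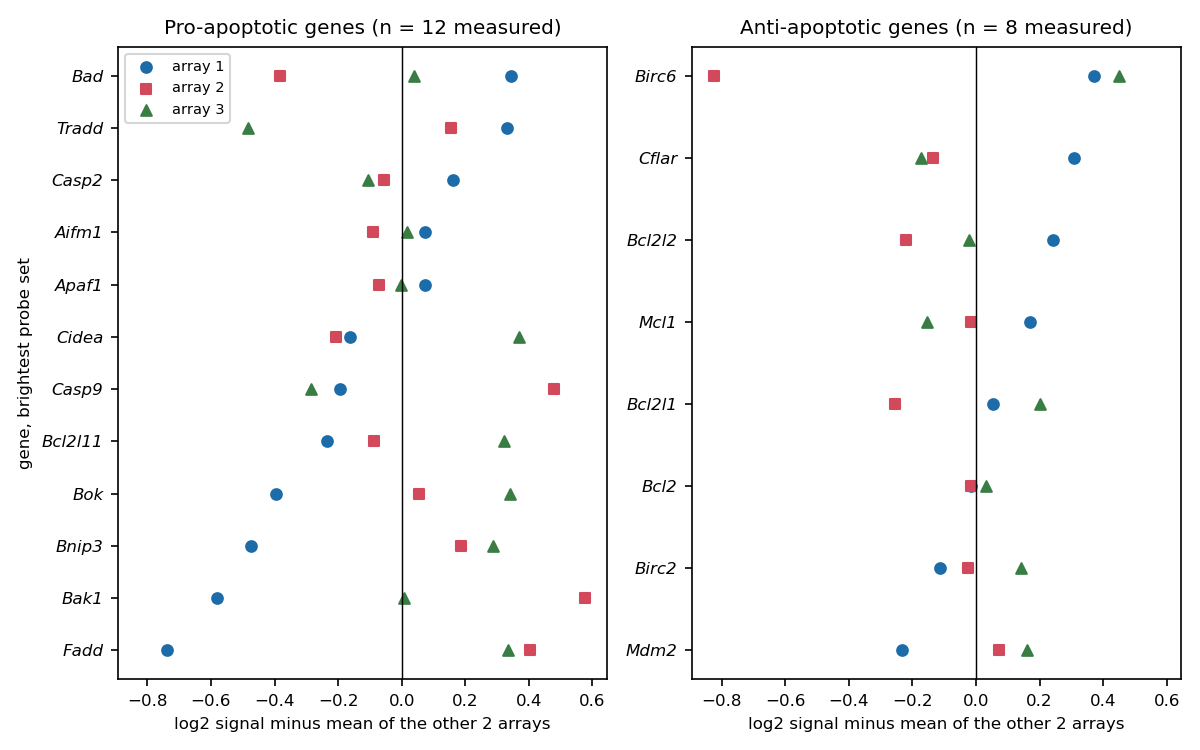
Log2 signal of each measured pro-apoptotic (left) and anti-apoptotic (right) gene on each array minus the mean of the other 2 arrays, with genes ordered by their shift on array 1. The pro-apoptotic genes spread from -0.74 to 0.34 on array 1, and Birc6 on array 2, at -0.82, lies furthest from 0.

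Several genes were read by more than 1 probe set, which shows how far a value depends on the probes. Of 16 such genes 10 had some probe sets above threshold on average and some not, against 47.3% of all 2073 named genes with several, 3 had all above and 3 none. Of 4 genes with at least 2 measured probe sets, Bad, Casp9, Pdcd6ip and Traf4, 0 had the same highest array on all of them, against 34.4% of 675 genes. The second probe set of Traf4 gave 332, 295.5 and 294.5, so the range of over 2-fold rests on 1 of its 2 probe sets. The second of Bad gave 139, 315 and 209.7, highest on array 2, where the brightest was lowest. Casp9 was above threshold on 3 of 4 probe sets, with the others at 223, 257 and 273, at 253, 234 and 186, and at 14.2, 19.8 and 96.5.

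The survival gene Bcl2, nearly flat on its brightest probe set, gave 108, 161 and 125 and 8.0, 45.4 and 94.2 on the other two. Some dimmer probe sets fell on array 2 alone, chosen here after their values were seen. The second of Birc2 gave 239, 25.3 and 238, the second of Bcl2l11 159, 35.0 and 275, and the second of Traf6 168, 35.2 and 159. The brightest probe sets of these 3 genes did not show that drop. For Bnip2 the second probe set gave 253, 199 and 33.6, low on array 3, where the brightest was also lowest. For Bcl2l1 the second probe set gave 58.3, 25.7 and 10.3, under threshold on each array. All 3 probe sets of Xiap were under threshold.

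**Figure D5:**
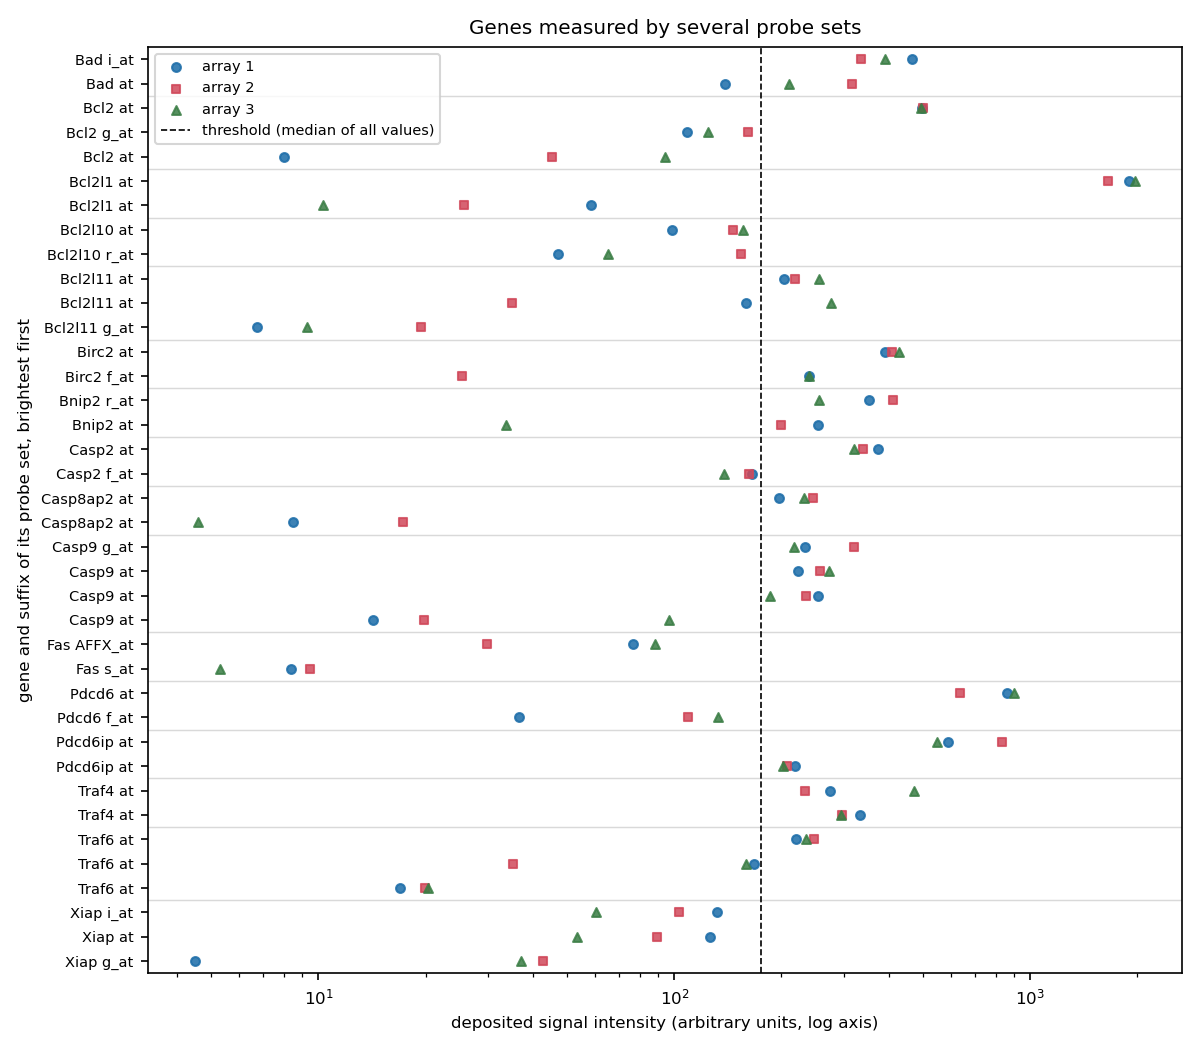
Deposited signal on each array, on a log axis, of every probe set of the 16 genes with several, labelled with the gene and the probe set's suffix, with the threshold as a dashed line. Bcl2, Bcl2l1 and Casp8ap2 have probe sets far apart on either side of the line.

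Other genes of the pathway, outside the families above, were read from a list of 48. Of these 38 had a single-gene probe set, 24 of them above threshold on all arrays, against 52.9% of named genes. A further 6 were above it on 1 or 2 arrays, and 8 on none, against 34.7%. Of 28 measured, 5 differed by over 2-fold between arrays (17.9%, against 10.2% of measured genes). Of the 24 that were above threshold on every array 3 did so, against 5.87% of all genes above it on every array. None of the 28 passed the limma variance test, and 2, Dffa and Akt1, had an unadjusted p under 0.05, against 4.57% of measured genes. The largest ranges belonged to Capn1, a calpain protease, at 61.4, 376 and 91.3, to Cdkn1a, the p53 target p21, at 299, 99.5 and 165, and to Dffa, the inhibitor of the apoptotic nuclease, at 219, 575 and 406. Capn1 and Dffa were highest on array 2 and Cdkn1a lowest there. Capn1 and Cdkn1a were each above threshold on 1 array only and counted as measured through that array, so their ranges are in part set by the filter.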

How the data were processed

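Total RNA from CA1 was measured on 3 arrays of 12488 probe sets. The deposited table gives 1 linear signal intensity per probe set and array. How the authors computed and scaled these signals is not given in the sources used here. Detection calls were not analysed here. The table held 0 columns of other samples. Gene names came from the platform annotation, checked through Entrez identifiers against the GRCm38.p6 gene table, which changed 0 symbols of these genes. Array controls (66 probe sets) were left out of scaling and tests. The 6218 probe sets with a mean above 174.8 were scaled to a common median by factors of 0.991, 0.987 and 1.02, floored at 47.5 and log2-transformed.

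Variances were tested with limma 3.58.1 in R 4.3.3 against a robust intensity-dependent prior (fitFDistRobustly, tails winsorised at 0.05 and 0.1), with upper-tail F probabilities and Benjamini-Hochberg adjustment over all measured probe sets. The test was checked on simulated data, with shifts of known size on 1 array. Alternatives were other scalings, floors, thresholds, probe-set choices and priors, and leaving out each array. Genes, lists and tests were chosen with earlier results of these data known, and the families, the promoter windows and the printed sequences after the values were seen. Every gene the rule found is accounted for, measured ones with all 3 signals, and of other pathway genes the 3 of largest range. The number of arrays limits the precision.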

Additional observations from a re-analysis of the deposited data

How the results depend on the processing

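The count of genes above threshold on all arrays was 38 with the threshold at the 25th percentile (73.5% of named genes), 9 at the 75th (26.8%), and between 25 and 30 under the other alternatives. The count past the limma variance test was 0 under all 15 alternatives run, and 0 at an unadjusted p under 0.05 as well. The count over 2-fold apart was 5 with the measured threshold at the 25th percentile (21.5% of measured genes) and with none (18.1%), 0 at the 75th percentile (5.53%), 2 with plain suffixes only, which brings in Bad (10.4%), 0 with the mean of all measured probe sets (9.64%), and 0 to 1 without each array (6.49%, 2.89% and 5.56% without arrays 1, 2 and 3). Over genes above threshold on every array, an alternative chosen after seeing the data, it was 1 of 29 (5.87%), and the anti-apoptotic shifts were 0.054, -0.027 and 0.14. The median log2 SD lay between 0.15 and 0.25 over 14 alternatives. It exceeded that of all measured genes with the threshold at the 75th percentile (0.24 against 0.21) and without array 2 (0.17 against 0.16), and was below it otherwise. At the 25th percentile the anti-apoptotic shift on array 1 was 0.022, and at the 75th the shifts on array 2 were 0.17 for pro-apoptotic and -0.18 for anti-apoptotic genes. With no threshold the array 1 shifts were -0.069 and 0. With plain suffixes the pro-apoptotic shifts were -0.27 on array 1 and 0.24 on array 3. Leaving out each other array, the pro-apoptotic shifts ran from -0.34 to 0.025 on array 1, -0.058 to -0.025 on array 2 and 0.058 to 0.34 on array 3, and the anti-apoptotic ones from -0.046 to 0.16, -0.16 to -0.11 and 0.046 to 0.11. The cause was not tested. No paired analysis was possible because there is 1 group.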
